A study of Mus musculus with 11 samples.

Results

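The genes described here encode the enzyme and transporter families that chemically modify and export drugs, aldehydes, retinoids and other small lipophilic molecules. They were taken by name from the protein-coding genes of the deposited table: glutathione S-transferases and gamma-glutamyltransferases (Gst, Mgst, Ggt), aldehyde dehydrogenases (Aldh), aldo-keto, alcohol, carbonyl, retinol and hydroxysteroid reductases and dehydrogenases (Akr, Adh, Cbr, Dhrs, Rdh, Hsd1), oxidases (Cyp, Fmo, Aox, Mao, Xdh), other conjugating enzymes (Ugt, Sult, Nat), carboxylesterases and epoxide hydrolases (Ces, Ephx), and ATP-binding cassette (ABC) proteins of subfamilies A to G. The sterol demethylase Cyp51 and the exporter Abcc1 were left out by rule. This gave 65 members among 4461 listed genes, of which 4056 were protein-coding. The rule used names and no measured value, although it was set with earlier results of these data known. The table itself holds only genes that its authors had called different between genotypes on these libraries.

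RNA-Seq was performed on cell lines derived from mouse mammary tumors of the NIC model, on an FVB/N background. In NIC animals the MMTV promoter drives activated ErbB2 and Cre recombinase from 1 bicistronic transcript, so every line of both groups carries both, and deletion is limited to cells in which MMTV is or was active. The NIC/Cpt1aL/L group, with conditional (floxed) alleles of Cpt1a, the enzyme that links fatty acids to carnitine for entry into mitochondria, comprised 4 lines (KO_1922, KO_1925, KO_2768 and KO_4258) in 7 libraries, KO_2768 with 1 and the others with duplicates. The NIC/Cpt1a+/+ group, with wild-type Cpt1a, comprised 2 lines (WT_5257 and WT_8905) in 4 libraries. Tumors were taken from female mice 8 weeks after palpation, and each line stands for 1 tumor. The sample titles word the conditional alleles the other way round from the genotype field in both groups, and the genotype field, with the KO and WT codes in the same titles, was followed; Cpt1a was not among the listed genes, so the deletion was not checked here. Libraries held 18247312 to 25386785 reads in the NIC/Cpt1aL/L group and 15199378 to 17372643 in the NIC/Cpt1a+/+ group. Duplicate libraries of a line were summed, so that n counts lines, and levels are given as CPM, the read counts scaled to library size with the authors' size factors, or, between genes, as FPKM, which also divides by gene length.

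As background, these families act in sequence. Oxidases, reductases and hydrolases expose or create a reactive group, often an aldehyde or a hydroxyl. Aldehyde dehydrogenases and aldo-keto reductases remove aldehydes by oxidation or reduction, transferases attach glutathione, glucuronate, sulfate or acetate, and ABC transporters pump the products out. Many members also have substrates inside the cell: retinaldehyde, which becomes retinoic acid, steroids, lipid peroxidation products, monoamines and fatty aldehydes. Mammary epithelium uses several of them, among them Xdh, a component of the milk fat globule membrane, and Abcg2, which secretes drugs and vitamins into milk.

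Xenobiotic enzymes are textbook targets of the aryl hydrocarbon receptor, which binds around the core GCGTG (dioxin response element), and of Nrf2, which binds around the core TGACNNNGC (antioxidant response element), on either strand. Both cores were searched in RefSeq promoter windows of GRCm38.p6, from 250 bases before to 50 bases after a start site. A window was found for 50 of the 65 members, with 66 windows in all. TGACNNNGC was present in 10 windows of 7 members (15.2% of windows, against 12.4% of 32851 windows genome-wide), and GCGTG in 24 windows of 23 members (36.4% against 32.4%), so both shares lay near those of all promoters. The stretches below belong to a pair of P450 genes with opposite directions and a pair of glutathione transferase genes that were both lower in NIC/Cpt1aL/L lines. Other members with the TGACNNNGC core went in either direction, among them Hsd17b12, which was lower, and Abcb1a, which was higher. Capitals mark the GCGTG core of the first pair and the TGACNNNGC core of the second, printed 5′ to 3′ on the strand of the gene, where a match on the other strand reads as its reverse complement.
Cyp1a1, chr9:57697463-57697612 (+), the 150 bases before the start, match beginning 54 bases before it: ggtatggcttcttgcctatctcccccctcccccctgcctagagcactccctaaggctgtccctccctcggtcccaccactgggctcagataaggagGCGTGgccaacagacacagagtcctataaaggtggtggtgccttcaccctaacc
Cyp1b1, chr17:79715062-79715211 (-), the 150 bases before the start, match beginning 76 bases before it, on the other strand: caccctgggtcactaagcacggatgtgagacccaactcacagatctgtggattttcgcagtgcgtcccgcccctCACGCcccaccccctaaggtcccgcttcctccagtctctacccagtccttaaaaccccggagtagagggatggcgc
Gsta3, chr1:21240435-21240584 (+), the 150 bases before the start, match beginning 121 bases before it: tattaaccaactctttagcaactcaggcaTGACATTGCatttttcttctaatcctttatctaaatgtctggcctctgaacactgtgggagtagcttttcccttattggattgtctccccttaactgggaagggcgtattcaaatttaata
Mgst1, chr6:138140461-138140489 (+), 29 bases around a match beginning 56 bases before the start, on the other strand: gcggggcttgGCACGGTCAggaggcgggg
For Mgst1 only 29 bases are given, since all 150 bases before that start lie in an annotated exon. A match describes these letters only and does not show that a factor binds there.

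The members that passed the test were all lower in NIC/Cpt1aL/L lines. Of the 65 members, 26 were below both NIC/Cpt1a+/+ lines in all 4 NIC/Cpt1aL/L lines (40%, against 34.3% of all listed genes), 20 were above both (30.8%, against 40.7%), and 19 overlapped. In edgeR's quasi-likelihood test by line, with Benjamini-Hochberg adjustment over the listed genes, 62 members had enough counts to be tested. Of these, 3 fell at an adjusted p under 0.05, Rdh11, Dhrs4 and Mgst2 (82 of 4273 listed genes, 1.92%), and 0 rose (57 listed genes, 1.33%). Abcc1, left out by rule, was above both controls in every NIC/Cpt1aL/L line (log2 fold change 2.30; edgeR adjusted p = 0.0258). Cyp51, also left out, was below both (log2 fold change -1.50; edgeR adjusted p = 0.0541). At an unadjusted p under 0.05 the members numbered 20 lower and 7 higher (21.5% and 26.3% of all listed genes tested), and DESeq2 on the same line sums called 19 lower and 14 higher (19.2% and 31.5% of its 4202 listed genes). Because the list was selected on this contrast, these p-values rank genes within it and are not independent evidence. The median log2 fold change of the tested members was 0.66, against 0.60 for all listed genes, whereas the median size of the change without its sign was 1.85 against 1.20.

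**Figure D1:**
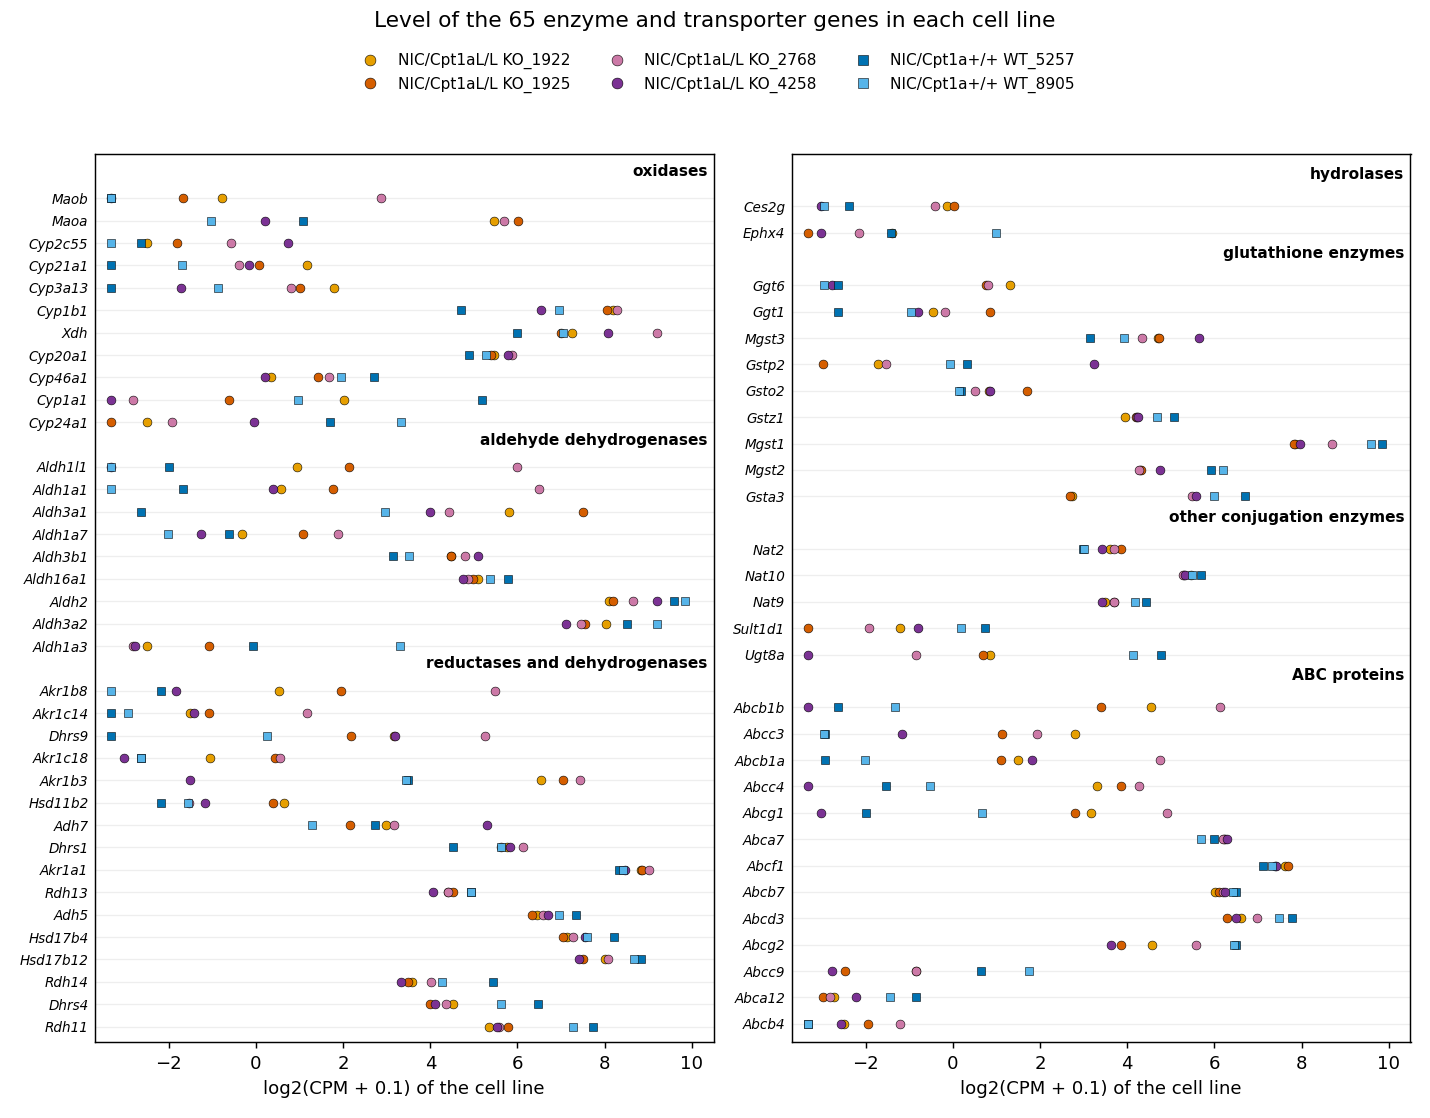
Level of each of the 65 members, as log2(CPM + 0.1), in the 4 NIC/Cpt1aL/L lines (circles) and the 2 NIC/Cpt1a+/+ lines (squares), sorted within role group by fold change, with untested members last. Many tested members toward the bottom of a group show circles below both squares. These circles are tight for Rdh11 and Dhrs4 but spread for Cyp24a1, Gsta3 and Ugt8a. Many members at the top show circles spread over several log2 units.

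Retinoid and carbonyl reductases held 2 of the 3 called members. Rdh11 (ENSMUSG00000066441, chr12:79174337-79192293), a microsomal retinaldehyde reductase, had 40.9, 55.2, 47.4 and 46.0 CPM in KO_1922, KO_1925, KO_2768 and KO_4258 and 211 and 154 CPM in WT_5257 and WT_8905. The groups did not come near each other, with means of 47.3 ± 5.93 (SD, n = 4) and 182 ± 40.6 (SD, n = 2), a log2 fold change of -1.95 (SE 0.20; edgeR adjusted p = 0.0250). Dhrs4 (ENSMUSG00000022210, chr14:55478758-55490338), a peroxisomal NADPH-dependent carbonyl and retinal reductase, had 22.9, 15.8, 20.3 and 17.1 CPM against 88.6 and 49.0 CPM. All 4 NIC/Cpt1aL/L lines lay well under the lower control, and the log2 fold change was -1.85 (SE 0.30; edgeR adjusted p = 0.0439). Without KO_1922 or KO_1925 the edgeR adjusted p was 0.0952 and 0.0715 for Rdh11 and 0.118 and 0.125 for Dhrs4. In these fits 0 of the 4123 and 4155 listed genes tested passed, so the loss was not particular to the 2 genes. Dhrs4 also had an edgeR adjusted p of 0.0514 without KO_2768. With any 1 line left out, the log2 fold change stayed between -2.16 and -1.70 for Rdh11 and between -2.22 and -1.36 for Dhrs4.

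The remaining 14 reductases and dehydrogenases did not pass the test. Among the 16 genes of this group, 7 were below both controls, 5 above and 4 overlapping. Hsd17b12, a 3-ketoacyl-CoA reductase of fatty acid elongation, had 256, 181, 271 and 169.8 CPM against 458 and 408 CPM (log2 fold change -0.98, SE 0.25; edgeR adjusted p = 0.0669). Hsd17b4, the peroxisomal multifunctional enzyme of beta-oxidation, had 139.9, 131, 154 and 188 CPM against 298 and 193 CPM (log2 fold change -0.68; edgeR adjusted p = 0.0921). In both genes the NIC/Cpt1aL/L lines lay lower without overlap, although KO_4258 came close to WT_8905 for Hsd17b4. Akr1a1, the NADPH-dependent aldehyde reductase and by FPKM the strongest of the group together with Hsd17b12, had 453, 464, 517 and 355 CPM against 324 and 341 CPM. It was modestly above both controls in every line, with a log2 fold change of 0.43 (SE 0.20; edgeR adjusted p = 0.119).

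Other aldo-keto reductases and Dhrs9 were high in some NIC/Cpt1aL/L lines only. Akr1b3, mouse aldose reductase, had 92.5, 131 and 174 CPM in KO_1922, KO_1925 and KO_2768 but 0.251 CPM in KO_4258, against 11.1 and 10.8 CPM in the controls. Thus 3 lines lay far above the controls and the fourth far below them, and the fitted difference did not pass (log2 fold change 3.18, SE 1.95; edgeR adjusted p = 0.165). Its neighbor Akr1b8, an aldo-keto reductase of the same cluster, had 1.34, 3.76, 44.5 and 0.182 CPM against 0.122 and 0 CPM. Dhrs9, a short-chain dehydrogenase that acts on retinol and 3-alpha-hydroxysteroids, had 8.81, 4.42, 38.2 and 9.05 CPM against 0 and 1.10 CPM. Both were highest in KO_2768, and both lay above the controls in all 4 lines (edgeR adjusted p = 0.105 and 0.106). For Akr1b8 in KO_4258 this rested on 4 reads per library, at 0.165 and 0.205 CPM, and 1 library of WT_5257 had 0.262 CPM.

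Glutathione enzymes differed in both directions, within subfamilies as well as between them. The 3 microsomal transferases of the annotation were all listed, and Mgst1 and Mgst2 were lower while Mgst3 was higher. Mgst2 (ENSMUSG00000074604, chr3:51660360-51682675), which can make leukotriene C4 and conjugate lipid products, had 19.6, 19.7, 19.2 and 26.9 CPM against 60.7 and 73.0 CPM. The means were 21.3 ± 3.70 (SD, n = 4) and 66.9 ± 8.75 (SD, n = 2), and the log2 fold change was -1.65 (SE 0.22; edgeR adjusted p = 0.0351). This call was lost without KO_1922 or KO_1925, at edgeR adjusted p of 0.117 and 0.119, in fits where 0 listed genes passed. With any 1 line left out, the log2 fold change of Mgst2 stayed between -1.78 and -1.51. Mgst1, an endoplasmic reticulum and mitochondrial membrane enzyme that also reduces lipid hydroperoxides, was the most abundant member by FPKM, and had 229, 228, 417 and 251 CPM against 927 and 778 CPM. Every NIC/Cpt1aL/L line lay well below the lower control, and the gene just missed the threshold (log2 fold change -1.60, SE 0.30; edgeR adjusted p = 0.0525). Mgst3 had 26.1, 26.4, 20.03 and 49.96 CPM against 8.81 and 15.1 CPM, above both controls in every line (log2 fold change 1.36, SE 0.48; edgeR adjusted p = 0.0896). Gsta3, an alpha-class transferase of the cytosol, had 6.57 and 6.35 CPM in KO_1922 and KO_1925 but 44.9 and 47.6 CPM in KO_2768 and KO_4258, against 105 and 63.8 CPM. It was below both controls throughout, with the NIC/Cpt1aL/L lines falling into a low and a middle pair (log2 fold change -1.68, SE 0.94; edgeR adjusted p = 0.142). The other 5 glutathione genes comprised 2 above both controls, 1 below and 2 overlapping.

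The most abundant aldehyde dehydrogenases were lower in NIC/Cpt1aL/L lines and weakly expressed ones varied among lines, and none passed the test. Aldh2, the mitochondrial enzyme that clears acetaldehyde and 4-hydroxynonenal, had 272, 291, 402 and 588 CPM against 776 and 916 CPM (log2 fold change -1.12, SE 0.35; edgeR adjusted p = 0.0795). Aldh3a2, the fatty aldehyde dehydrogenase of the endoplasmic reticulum and peroxisome, had 262, 188, 176 and 138 CPM against 367 and 587 CPM (log2 fold change -1.32, SE 0.31; edgeR adjusted p = 0.0642). Neither gene's groups overlapped. Aldh3a1, which oxidizes aromatic and lipid-derived aldehydes, showed the opposite order, with 55.4, 182, 21.5 and 15.7 CPM against 0.0610 and 7.64 CPM. All 4 NIC/Cpt1aL/L lines were above both controls, the controls themselves being far apart (log2 fold change 4.16, SE 2.00; edgeR adjusted p = 0.120). Aldh3a1 and Aldh3a2 lie next to each other on chromosome 11, with 4996 bases between them.

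The aldehyde dehydrogenases of retinoid and folate metabolism were nearly off in the controls or in the NIC/Cpt1aL/L lines. Aldh1a1, which makes retinoic acid, had 1.39, 3.28, 89.5 and 1.21 CPM against 0.213 and 0 CPM. Aldh1l1, the cytosolic 10-formyltetrahydrofolate dehydrogenase, had 1.82, 4.26, 63.6 and 0 CPM against 0.152 and 0 CPM. In both, KO_2768 stood far above every other line, and neither passed the test (edgeR adjusted p = 0.104 and 0.120). Aldh1a3, the other retinoic acid-forming enzyme listed, went the other way, with 0.0758, 0.370, 0.0411 and 0.0456 CPM against 0.854 and 9.78 CPM (log2 fold change -5.27, SE 1.33; edgeR adjusted p = 0.0668). Over the 9 aldehyde dehydrogenases, 4 were below both controls, 3 above and 2 overlapping.

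Oxidases had no common direction: of 11 members, 6 overlapped between genotypes, 3 were above both controls and 2 below. Cyp1b1, a P450 of estrogens, retinoids and polycyclic hydrocarbons, had 292, 266, 309 and 93.3 CPM against 26.0 and 123 CPM. KO_4258 lay between the controls, and the other 3 lines lay above both (log2 fold change 1.69, SE 0.78; edgeR adjusted p = 0.116). Cyp1a1, the classic aryl hydrocarbon receptor target, whose promoter carries the same core (capitals) as that of Cyp1b1 in the stretches above, had 3.96, 0.556, 0.0411 and 0 CPM against 36.2 and 1.84 CPM (log2 fold change -4.05, SE 2.16; edgeR adjusted p = 0.134). The 2 P450 genes thus had opposite signs, each with an overlap between genotypes. Cyp24a1, the vitamin D 24-hydroxylase, had 0.0758, 0, 0.164 and 0.866 CPM against 3.14 and 9.89 CPM, without overlap (log2 fold change -4.53, SE 1.59; edgeR adjusted p = 0.0895). Cyp20a1, a P450 with no settled substrate, had 43.8, 41.9, 58.8 and 54.8 CPM against 29.6 and 38.9 CPM, and showed the smallest spread of the named oxidases.

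Xdh, xanthine oxidoreductase of purine breakdown and the milk fat globule, had 151, 127, 591 and 268 CPM against 63.5 and 133 CPM. Only KO_1925 fell within the range of the controls (log2 fold change 1.53, SE 0.76; edgeR adjusted p = 0.123). Maoa, a monoamine oxidase of the outer mitochondrial membrane, had 43.8, 64.2 and 51.2 CPM in KO_1922, KO_1925 and KO_2768 but 1.05 CPM in KO_4258, against 2.01 and 0.386 CPM. Maoa thus had 3 lines well above the controls, as Akr1b3 did, but KO_4258 lay between the controls and not far below them (log2 fold change 5.06, SE 1.80, edgeR adjusted p = 0.0898). Its neighbor Maob had 0.480, 0.212, 7.15 and 0 CPM, and 0 reads in all 4 control libraries. Against a floor of 3 reads per library, the mean of the NIC/Cpt1aL/L lines was at least 9.96-fold higher, carried mostly by KO_2768.

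**Figure D2:**
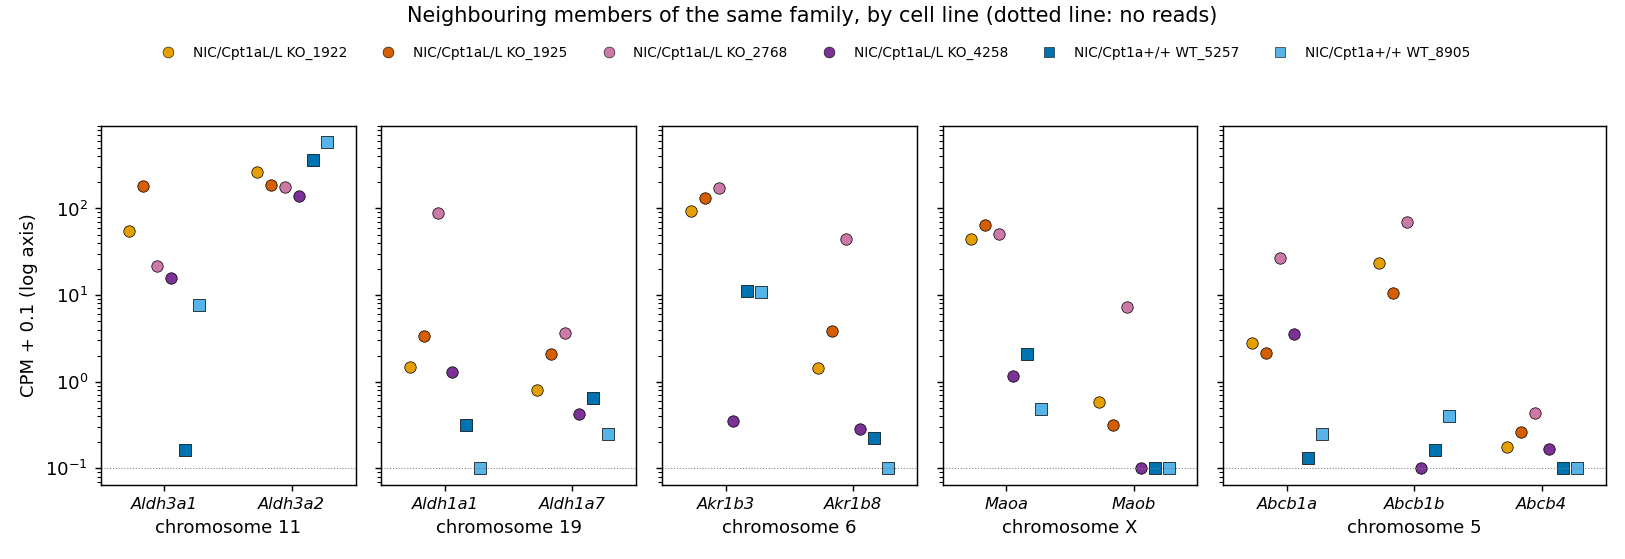
CPM + 0.1 on a log axis of members that are neighbors on a chromosome, for the 4 NIC/Cpt1aL/L lines (circles) and the 2 NIC/Cpt1a+/+ lines (squares); the dotted line marks 0 reads. KO_2768 is highest for Aldh1a1, Akr1b8, Maob and Abcb1b, KO_4258 is lowest for Akr1b3 and lies on the dotted line for Abcb1b and Maob, whereas Aldh3a1 and Aldh3a2 differ in opposite directions.

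Several ABC proteins of drug and lipid export had reads in most NIC/Cpt1aL/L lines and few in controls, Abcg2 had the opposite order, and none passed the test. Abcb1a and Abcb1b encode P-glycoprotein, the multidrug exporter. Abcb1a had 2.70, 2.06, 26.8 and 3.44 CPM against 0.0305 and 0.149 CPM, and was above both controls in every line (edgeR adjusted p = 0.0725). Abcb1b had 23.4, 10.4 and 70.4 CPM in KO_1922, KO_1925 and KO_2768 but 0 in KO_4258, against 0.0610 and 0.297 CPM (edgeR adjusted p = 0.108). Abcb4, the phospholipid flippase between which and Abcb1a the gene Abcb1b lies, stayed at or below 0.329 CPM in every line. Transcript windows of 50 bases shared with another gene made up 17.6% of Abcb1a and 11.6% of Abcb1b, so reads may not be fully separated between these paralogs.

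Abcc3, an exporter of glucuronides and bile salts, had 6.87, 2.09, 3.74 and 0.342 CPM, while each control line held 1 read (edgeR adjusted p = 0.0652). Abcc4, an exporter of cyclic nucleotides and prostanoids, had 9.72, 14.5, 19.2 and 0 CPM against 0.244 and 0.594 CPM (edgeR adjusted p = 0.129). Abcg1, a sterol exporter, had 8.84, 6.85, 30.02 and 0.0228 CPM against 0.152 and 1.49 CPM (edgeR adjusted p = 0.166). In all 3 genes KO_4258 was the lowest NIC/Cpt1aL/L line, and for Abcc4 and Abcg1 it lay below both controls. It held 0 reads for Abcc4 and 1 for Abcg1, and WT_5257 lay near the floor of 3 reads per library, so this order is uncertain. Abcg2, the breast cancer resistance protein, had 23.8, 14.4, 47.6 and 12.3 CPM against 89.5 and 86.9 CPM (log2 fold change -1.85, SE 0.55; edgeR adjusted p = 0.0774). Abcd3, which brings long-chain acyl groups into peroxisomes, had 96.9, 78.7, 126 and 89.5 CPM against 219 and 179.9 CPM (log2 fold change -1.03, SE 0.22; edgeR adjusted p = 0.0612). Abcg2 and Abcd3 lay below both controls in every line. Abcf1, an ABC protein of translation that is no transporter, differed little, with 196, 206, 169 and 169 CPM against 139 and 161 CPM. Of the 13 ABC genes, 5 were above both controls, 5 below and 3 overlapping.

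Other conjugating enzymes were few, with 4 of 5 below both controls. Ugt8a, which makes galactosylceramide and is related to the drug glucuronosyltransferases by sequence, had 1.72, 1.51, 0.452 and 0 CPM against 27.5 and 17.4 CPM (log2 fold change -4.60, SE 1.51; edgeR adjusted p = 0.0840). This was the widest gap among members lower in every line and expressed above 10 CPM in both controls. Nat2, an arylamine N-acetyltransferase, had 12.1, 14.4, 12.8 and 10.6 CPM against 7.80 and 7.96 CPM (log2 fold change 0.66; edgeR adjusted p = 0.118). Nat9 and Nat10, caught by name only, since Nat10 acetylates RNA and neither is an arylamine N-acetyltransferase, had log2 fold changes of -0.73 and -0.25 (edgeR adjusted p = 0.0931 and 0.195). The 2 hydrolases were weak. Ces2g, a carboxylesterase, had 0.808, 0.926, 0.658 and 0.0228 CPM against 0.0915 and 0.0297 CPM, and Ephx4, of the epoxide hydrolase family, had 0.278, 0, 0.123 and 0.0228 CPM against 0.274 and 1.87 CPM, and both overlapped between genotypes.

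Compared per length, the summed level of the members was lower in NIC/Cpt1aL/L lines. Their summed FPKM was 1296, 1304, 1688 and 1217 in KO_1922, KO_1925, KO_2768 and KO_4258, against 2281 and 2155 in the controls. Mgst1 alone accounted for 31.5 to 35.1% of the sum in controls and for 15.1 to 20.3% in NIC/Cpt1aL/L lines, whereas Akr1a1 accounted for 6.42 to 7.24% and 12.9 to 16.1%. Glutathione enzymes summed to 245 to 395 FPKM against 760 to 890 FPKM, aldehyde dehydrogenases to 211 to 267 against 340 to 459 FPKM, and oxidases to 102 to 224 against 50.9 to 77.4 FPKM. The first 2 groups were thus lower and the oxidases higher in every NIC/Cpt1aL/L line. These sums are descriptions with no test, and each is led by a few genes.

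**Figure D3:**
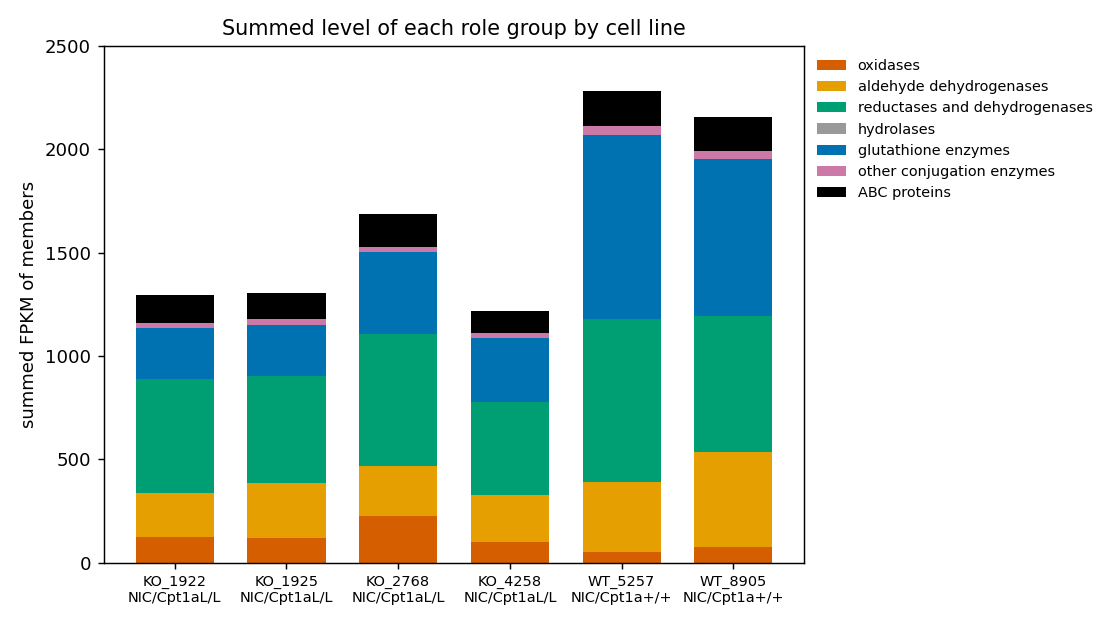
Summed FPKM of the members of each role group, stacked, for each line of both genotypes. Totals are 1217 to 1688 in the 4 NIC/Cpt1aL/L lines and 2155 to 2281 in the 2 NIC/Cpt1a+/+ lines, with the glutathione enzymes as the segment that differs most; hydrolases are too small to be seen.

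Members with a higher mean in NIC/Cpt1aL/L lines varied more among those lines than members with a lower mean. Among the 52 members with a mean of at least 1 CPM, the 24 that were lower had a median log2 range over the 4 NIC/Cpt1aL/L lines of 0.67, whereas the 28 that were higher had a median range of 3.31. A range under 1 was seen in 16 of the former (66.7%) and 7 of the latter (25.0%). Over all listed genes of that level, 67.6% of 1612 lower and 48.2% of 2134 higher genes had such a range, so that the lower members resembled the rest of the list and the higher ones varied more. This is a description, and the difference was not tested.

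**Figure D4:**
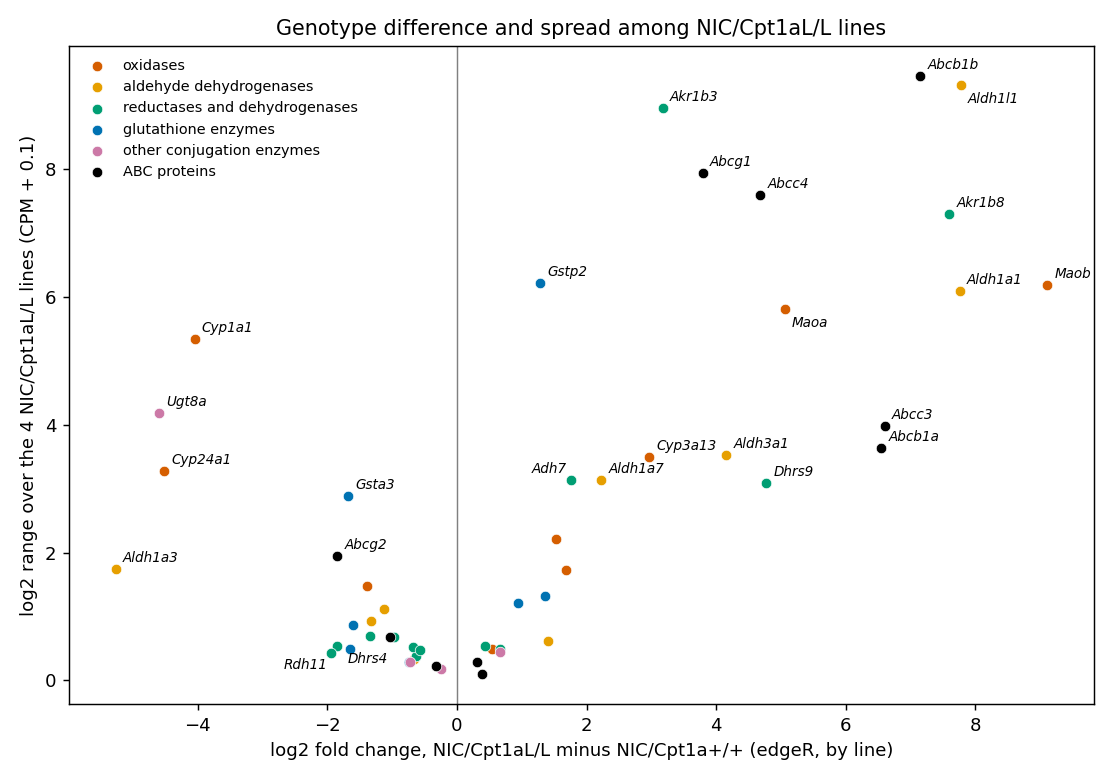
Log2 fold change between genotypes (edgeR, by line) against the log2 range of the 4 NIC/Cpt1aL/L lines, for tested members with a mean of at least 1 CPM, colored by role group; fold changes of members with 0 or few control reads, such as Maob, depend on the prior count of the fit. Members with large positive fold changes, such as Abcb1b, Aldh1l1 and Akr1b3, also have ranges above 8, whereas Rdh11 and Dhrs4 combine a negative fold change near -1.9 with ranges near 0.5.

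Differences within a genotype were tested with duplicates as the measure of spread; the list was called on the same libraries, so these counts are read only against those of all listed genes. Among the 4 NIC/Cpt1aL/L lines, 60 of 63 tested members differed (edgeR adjusted p under 0.05), against 88.6% of all listed genes, and 42 differed between the 2 controls, against 60.6%. The median range of the 62 members tested between genotypes was 1.83 log2 units over NIC/Cpt1aL/L lines (0.96 for all listed genes so tested) and 0.62 between controls (0.47). A range over 4 lines tends to be wider than a range over 2 by number alone. The median of each gene's largest gap between duplicates of a line was 0.43 (0.25). Since a line is 1 tumor, these tests concern these lines only. KO_2768, with 1 library, added nothing to the measure of spread.

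KO_2768 was often the highest and KO_4258 often the lowest of the NIC/Cpt1aL/L lines. Values of KO_2768 rest on 1 library and could not be checked against a duplicate. KO_2768 was the highest NIC/Cpt1aL/L line for 22 of the 52 members (42.3%, against 35.0% of all listed genes of that level) and at least 3 times the next line for 8: Abcb1a, Abcb1b, Abcg1, Akr1b8, Aldh1a1, Aldh1l1, Dhrs9 and Maob (5.15% of listed genes). KO_4258 was the lowest for 26 (50.0%, against 39.2%). It was the single NIC/Cpt1aL/L line not above both controls for 13 members (10.2% of all listed genes), among them Abcb1b, Abcc4, Abcg1, Akr1b3, Ces2g, Cyp1b1, Maoa and Maob, and for 6 of these it lay below both (2.8%). For all but Akr1b3 of these 6, KO_4258 libraries held 0 or 1 read and WT_5257 had at most 0.244 CPM. Their order against the controls thus lay near the floor of 3 reads per library and is uncertain. Without KO_4258, 33 rather than 20 members were above both controls (50.9% of all listed genes). EdgeR then called 7 members higher (7.33% of listed genes), Abcb1b, Abcc3, Abcc4, Akr1b3, Ces2g and Maoa among the named ones, and 7 lower (5.62%), adding Aldh2, Cyp24a1, Mgst1 and Ugt8a to the 3 above. Calls over the whole list went up as well, from 57 to 308 higher and from 82 to 236 lower. Without KO_2768, 20 members were above both controls (45.9% of listed genes), and edgeR called 0 higher (1.8%) and 5 lower (2.51%).

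The listed fibroblast and mesenchyme markers were highest in KO_2768 and lowest in KO_4258 among NIC/Cpt1aL/L lines. The epithelial marker Elf5 had the same highest and lowest line, whereas Krt17 and Fabp4 did not share both. Of 10 fibroblast and mesenchyme markers, 5 were listed, and their summed level was 0.0456 to 1482 CPM over NIC/Cpt1aL/L lines and 0 to 0.178 CPM over controls. The highest value was that of KO_2768, in which Dcn alone had 1451 CPM, against 0 in KO_4258 and both controls. Col1a2, Pdgfrb and Thy1 were at 0 in KO_4258 and reached 6.04, 14.2 and 6.54 CPM in KO_2768. Of 11 mammary epithelial markers, 2 were listed: Elf5, a luminal transcription factor, had 66.6, 43.6, 152 and 17.4 CPM against 287 and 301 CPM, and Krt17, a basal keratin, had 11.01, 2.94, 3.33 and 1.16 CPM against 0 and 0.0297 CPM. Of 7 leukocyte and 4 endothelial markers 0 were listed, and of 5 adipocyte markers only Fabp4 was, at 0.455, 1.27, 2.26 and 1.57 CPM against 0 and 0.119 CPM. The part of cell composition in the values of the enzymes was not tested, and more cells of a type cannot be told apart from more RNA per cell in bulk libraries.

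Of 50 genes fixed as the surroundings of these enzymes, 10 were listed, 6 of them above both controls and 1 below (40.7% and 34.3% of all listed genes), with 0 called by edgeR. At an unadjusted p under 0.05, 7 were higher and 1 lower (26.3% and 21.5% of listed genes), and DESeq2 gave the same counts at an adjusted p under 0.05 (31.5% and 19.2%). Papss1, which makes the sulfate donor for sulfotransferases, had 172, 135, 199 and 215 CPM against 426 and 379 CPM (log2 fold change -1.16; edgeR adjusted p = 0.0537). Ugdh, which makes the glucuronate donor, had 93.0, 100.3, 119 and 101 CPM against 31.2 and 68.1 CPM, and the quinone reductase Nqo1 had 1.62, 1.91, 4.07 and 0.137 CPM against 0 and 0.0594 CPM. Esd, Nqo2 and the retinoic acid receptors Rara and Rarg were also above both controls, whereas Gsr, Pon3 and Cyb5r3 overlapped. None of the 12 receptors and regulators of the list, which include Ahr and Nfe2l2 (Nrf2), was among the listed genes.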

How the data were processed

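According to the methods and the submitters' notes, the authors trimmed reads (Trimmomatic), aligned them to mm10 (GRCm38) with STAR and assigned them to genes with HTSeq; whether counting used strand is not given in the sources used here. The authors deposited 1 table that holds raw read counts per gene and library, FPKM, and counts divided by a size factor per library (treated as a normalized signal). Columns with the authors' own genotype contrast (fold change, raw and corrected p) were not used, and only genes they called are listed. Size factors were recovered as count over normalized value, and library totals from counts, gene lengths and FPKM.

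Duplicates were summed by line. CPM used the authors' size factors, since scaling on a list chosen for a difference assumes that most of its genes do not differ. Genotypes were compared with edgeR 4.0.16 (R 4.3.3; quasi-likelihood F test, filterByExpr, Benjamini-Hochberg over the listed genes tested, threshold 0.05). Differences among lines were tested on libraries with 1 coefficient per line. Alternatives included DESeq2 1.42.0, and the fits were tested on simulated data. Log2 ranges used CPM + 0.1. A floor of 3 reads was 0.123 to 0.197 CPM per library, and this floor covers counting error only. Each SE is the size of the log2 fold change over the square root of F, so it includes spread between lines.

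The members and lists were chosen with earlier results of these data known. Named genes were called members, in each role group the 4 with the largest fold change (mean of at least 1 CPM) and the 3 with the highest FPKM, and the 5 with the widest range over NIC/Cpt1aL/L lines; Abcb4 and the genes standing out by line were named after their values were seen. All 65 gene IDs matched GENCODE vM21. Over 5% of 50-base transcript windows were shared with another gene in 9 members (among the named, Abcb1a, Abcb1b, Akr1b3 and Xdh), and 12 overlapped an exon on the opposite strand (among the named, Abcb1a, Abcb1b, Aldh1l1, Aldh2, Cyp24a1 and Ephx4), so their counts are uncertain.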

Additional observations from a re-analysis of the deposited data

Results flagged for a closer look

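In 10 of the 39 named members, the highest of the 4 NIC/Cpt1aL/L lines stood apart from the next in CPM by more than Dixon's 95% critical value, the ratio being that gap over the whole range of the lines. Chance flags about 1 in 20 groups of normally distributed values. The named members were chosen in part for a wide range over these lines or a large fold change, so their share is a description and not a test; among genes with a mean of at least 1 CPM, 12 of 52 members (23.1%) and 417 of 3744 listed genes (11.1%) were flagged in either direction. KO_2768 was the line that stood apart in 7: Aldh1a1 (ratio 0.977; 89.5 CPM against 3.28 in the next line), Abcb1a (0.944; 26.8 against 3.44), Aldh1l1 (0.933; 63.6 against 4.26), Maob (0.933; 7.15 against 0.480), Akr1b8 (0.919; 44.5 against 3.76), Mgst1 (0.876; 417 against 251) and Dhrs9 (0.863; 38.2 against 9.05). In Mgst1 that line was still below both controls. All values of KO_2768 come from 1 library, without a duplicate. Fibroblast markers were also highest in KO_2768, and their part in these values was not tested.

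The other 3 had another line on top. Mgst2 was highest in KO_4258 (ratio 0.932; 26.9 CPM against 19.7), Aldh1a3 in KO_1925 (0.895; 0.370 against 0.0758), and Cyp1a1 in KO_1922 (0.860; 3.96 against 0.556).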

How the results depend on the processing

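The counts of called members depended on what counted as a sample. With every library as a separate sample, edgeR called 28 members higher and 26 lower (55.5% and 42.5% of all listed genes tested), and with a replicate block 26 and 26 (53.8% and 42.1%), so that nearly every listed gene was called; duplicates of a line correlated at 0.926 to 0.979 in their deviations from the group means, whereas samples of the same number and other genotype correlated at -0.152 to 0.154, so the numbers did not pair them. DESeq2 on line sums called 14 higher and 19 lower. TMM and median-of-ratios scaling on the listed genes each called 7 lower, and moved the median log2 fold change of all listed genes from 0.60 to 0.41 and 0.36. Over all listed genes the split between higher and lower calls went from 57 and 82 to 99 and 291 with TMM and to 100 and 294 with median-of-ratios. Adjusted for 20000 tests, 0 members and 0 of 4273 listed genes were called. When each NIC/Cpt1aL/L line was left out in turn, 0 to 7 members were called higher and 0 to 7 lower. Of the members, 20 to 33 lay above both controls, and the highest values came without KO_4258. Without KO_1922 or KO_1925, 0 members were called, and likewise 0 of the 4123 and 4155 listed genes tested. Fits without a control line rest on a single control line, so their calls are not given, and whether the calls hold without either control cannot be judged. Under the other alternatives run, the remaining counts stayed within 1.5 times the reported ones. For named members, 330 of 415 alternative values kept direction and side of the threshold, 11 no longer passed it, 74 newly passed it and 0 reversed. The cause of these differences was not tested.

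With 2 control lines of 1 tumor each, the spread between controls is poorly known, and differences between lines cannot be told apart from those between tumors. Members near the floor of 3 reads, such as Maob and Abcc3 in controls, have no reliable fold change. Cpt1a was not among the listed genes.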
